A study of Homo sapiens with 6 samples.

Results

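The genes described here are 39 human histone methyltransferases and demethylases outside Polycomb repressive complex 2 (PRC2). They were chosen by name and enzyme family from the 39012 genes of the deposited expression table, with earlier results of these data known. All 39 were found in that table, and all 39 were among the 14156 genes with enough reads to be tested. The assay was RNA-seq of Jurkat cells, a long-established human leukaemia line of T cell origin. Of the 6 libraries, 3 came from cells with stable overexpression of SCML4, a Scm-like Polycomb group protein, and 3 from the control cells labelled EV. Both groups had been treated for 6 h with PMA (100 ng/ml), which activates protein kinase C, and ionomycin (1 µM), which raises calcium. The comparison was therefore made within stimulated cells, and unstimulated cells were not analysed here. The labels give neither the promoter that drives SCML4 nor whether each line was a clone or a pool. They also do not state that replicates were separate cultures, so the p-values speak to how these libraries scatter, possibly for technical reasons.

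Histone methylation is written by enzymes that take the methyl group of S-adenosylmethionine to a lysine or an arginine. It is erased by flavin-dependent enzymes of the LSD family and by Jumonji enzymes, which use iron and oxoglutarate. Methylation of histone H3 at lysine 4 (H3K4) marks promoters and enhancers, at lysine 36 (H3K36) and lysine 79 (H3K79) the bodies of transcribed genes, at lysine 9 (H3K9) heterochromatin, and at lysine 27 (H3K27) genes held by Polycomb. The writers of H3K27 belong to PRC2 and are not in the set, while the erasers of that mark are. In acute lymphoblastic leukaemia several of these genes are known targets of mutation or rearrangement, among them KMT2A, NSD2, SETD2 and KDM6A.

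The libraries held 8953671 to 10336597 reads in SCML4 cells and 8968067 to 9680394 in EV cells. The unit of level is CPM, a gene's reads per 1000000 of the library total, computed from the deposited FPKM values. SCML4 itself had 570, 657 and 506 reads in the SCML4 libraries, against 7, 2 and 1 in the EV libraries. That is 61.0 ± 3.89 CPM in SCML4 cells and 0.351 ± 0.331 in EV cells (mean ± SD, n = 3 each), and the groups did not overlap. The difference on the log2(CPM + 1) scale was 5.55 (SE 0.19), at a limma-trend adjusted p of 1.65e-09. An exact two-sided permutation test gave p = 0.1, the smallest value that 3 against 3 libraries allow. On the deposited FPKM scale the difference was 1.88 and the adjusted p 0.0619, and over all alternatives the adjusted p in limma ran from 9.2e-17 to 0.0619. All 11 T cell markers listed were present, at 3196 to 3283 CPM in sum in SCML4 libraries and 2885 to 3165 in EV libraries. Of the B cell markers CD79A averaged 31.5 CPM in SCML4 cells and 25.97 in EV cells while PAX5 was at 0, and the myeloid list summed to at most 0.871 CPM in any library. One library, EV replicate 1, was unlike the other 5. It lay at -30.3 on the first principal component, which held 36.5% of the variance, where the others lay between 2.30 and 8.12.

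None of the 39 enzymes passed the test for a change in transcript level. Of 39 tested, 0 reached an adjusted p under 0.05 in limma-trend, against 1 of 14156 genes (0.00706%), which was SCML4. The smallest adjusted p among them was 0.865. At an unadjusted p under 0.05 there was 1 enzyme (2.56%), the lysine methyltransferase SETD7, where 5.27% of all genes tested reached that level. The estimates were also narrow. In all 39 the 95% interval of the difference lay within a 1.5-fold change in either direction, and in 32 it lay within 1.25-fold. The bounds farthest from 0 were -0.46 in log2 for KDM6A, an eraser of H3K27 methylation, and 0.49 for the arginine methyltransferase PRMT1. The median size of the difference, whatever its sign, was 0.051 in log2 for the enzymes and 0.077 for the 7264 genes within the same range of CPM. Within that range the genes were not matched to the enzymes, whose median level lay at a percentile of 85.5 among all genes tested. In bulk RNA a level that differs in every cell and a level that differs in some of the cells cannot be told apart.

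**Figure D1:**
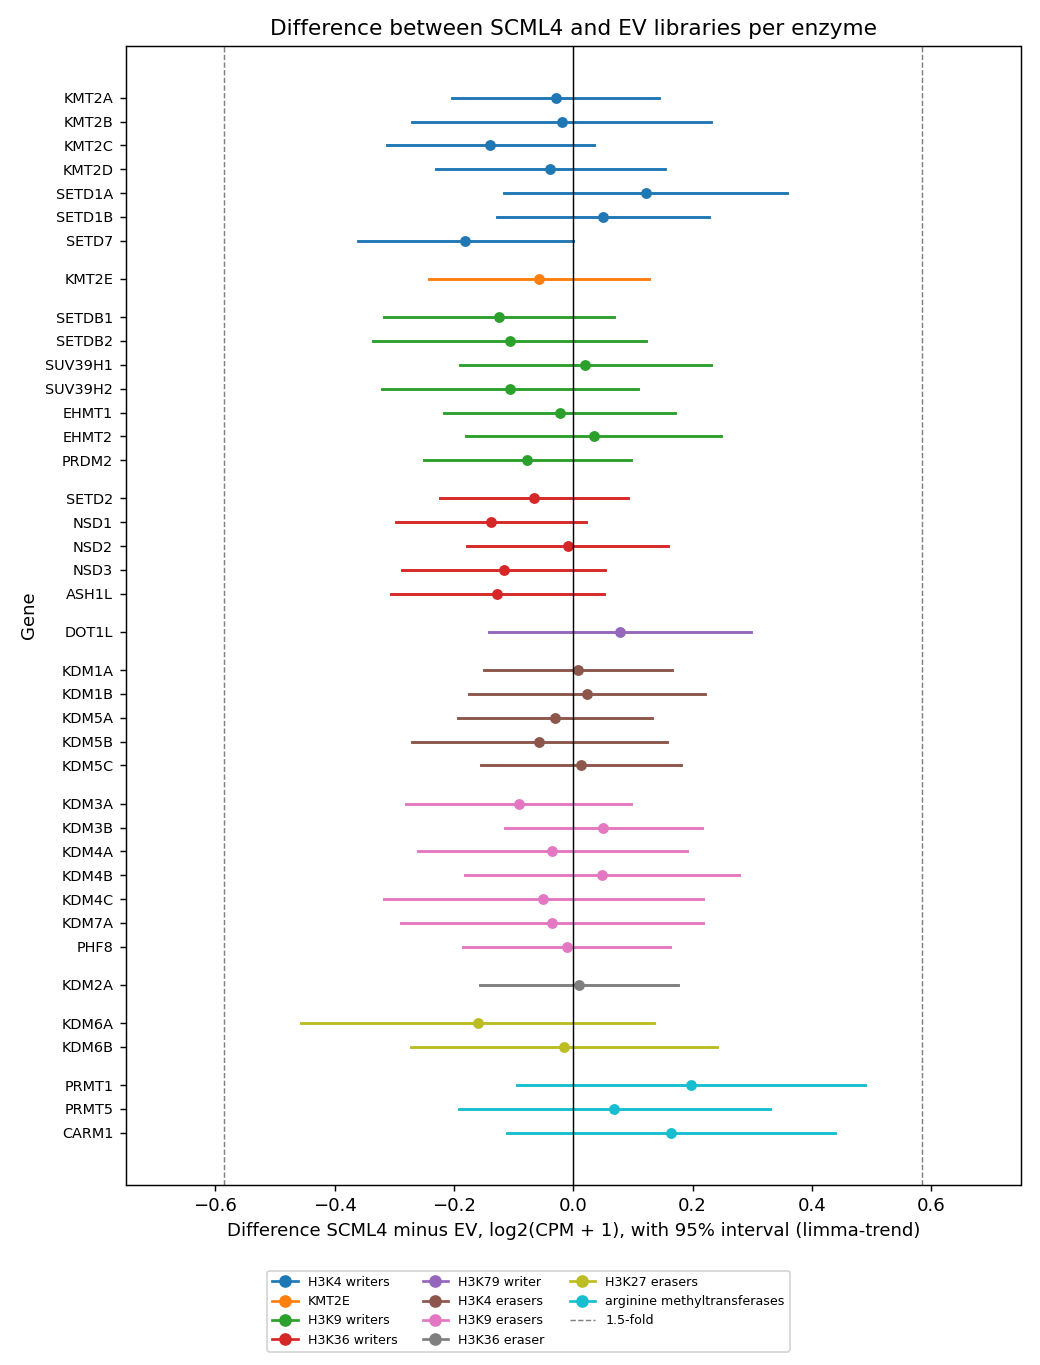
Difference between SCML4 and EV libraries for each of the 39 enzymes (points, log2(CPM + 1), SCML4 minus EV) with the 95% interval from limma-trend, ordered by the residue written or erased. Every interval lies between the dashed lines at 1.5-fold; the interval of SETD7 ends just below 0, at -0.00054, and the other 38 cross 0.

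Negative differences outnumbered positive ones. They were found in 25 of the 39 enzymes (64.1%), against 47.6% of all genes tested, and the median was -0.029 in log2 against 0.0079 over all genes. This count moved with single libraries of both groups. Leaving out SCML4 replicate 1, 2 or 3 gave 21, 19 and 31 negative differences, with medians of -0.0014, 0.0036 and -0.069, and leaving out EV replicate 1, 2 or 3 gave 28, 21 and 22, with medians of -0.027, -0.013 and -0.032. In 3 enzymes (7.69%) the groups did not overlap, against 11.6% of all genes tested. All 3 were lower in SCML4 cells, where 5.36% of genes tested were apart in that direction, and 0 were higher, against 6.29%. These were SETD7, the H3K9 methyltransferase SETDB1 and the H3K36 methyltransferase NSD1. After each library was corrected for GC content and length SETDB1 still had groups that did not overlap, SETD7 and NSD1 overlapped at differences of -0.15 and -0.10, and ASH1L did not overlap. Summed over the 39 genes, the level was 5392.5, 5294 and 5828 CPM in SCML4 libraries and 5611, 5584 and 5662 in EV libraries, with SCML4 replicate 3 above all of the EV values. The spread within a group was small, with a median coefficient of variation of 6.47% in SCML4 cells and 6.93% in EV cells.

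**Figure D2:**
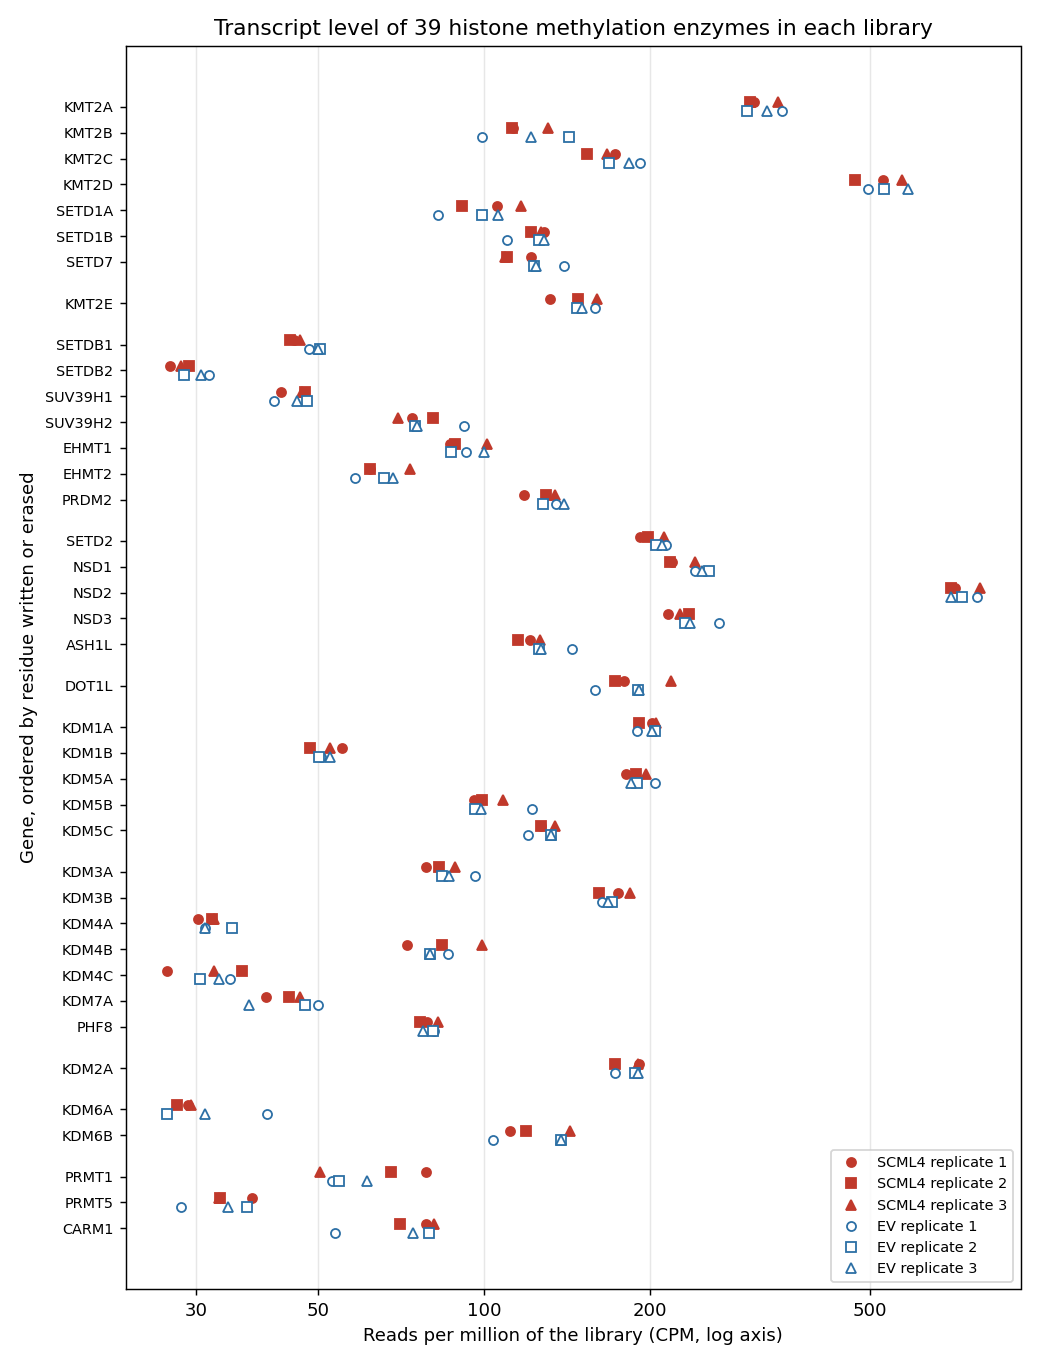
Transcript level of each enzyme in each library (CPM, log axis), SCML4 libraries as filled red symbols and EV libraries as open blue symbols, with the replicate shown by the symbol's shape. The groups overlap in 36 of the 39 rows, and levels run from 26.5 CPM for KDM6A in EV replicate 2 to 792 CPM for NSD2 in SCML4 replicate 3.

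The enzymes were well expressed. Their median level was 119.8 CPM, against 31.0 CPM over all genes tested, and the lowest read count of any enzyme in any library was 238, for KDM6A. Their transcripts were also long, the longest coding transcript having a median of 6713 bases for the enzymes and 2993 bases for all genes tested. Per kilobase of that transcript the median was 16.5 CPM for the enzymes and 10.4 CPM for all genes tested. NSD2, which dimethylates H3K36, stood highest on both scales. It had 714, 701 and 792 CPM in SCML4 libraries and 782, 736 and 702 in EV libraries, so that the groups overlapped fully. Per kilobase NSD2 was at 85.9 ± 5.75 CPM in SCML4 cells and 86.4 ± 4.70 in EV cells, a percentile of 95.6 among all genes tested. KDM1A (LSD1), the flavin-dependent eraser of H3K4 methylation, came next at 65.1 ± 2.42 and 64.8 ± 2.59 CPM per kilobase in SCML4 and EV cells. Its distance from NSD2 exceeded the spread of either group. PRMT1 followed at 38.9 ± 8.44 CPM per kilobase in SCML4 cells and 33.3 ± 2.65 in EV cells. The spread does not cover the choice of length, on which this order rests. The longest coding transcripts of NSD2, KDM1A and PRMT1 have 8568, 3059 and 1686 bases. All annotated exons of each gene joined have 19776, 5440 and 4796 bases, and levels per kilobase of those were not computed.

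From the fourth place down the order was close. KMT2D, KDM2A, SETD2, SUV39H2, KDM3B and DOT1L all lay between 24.2 and 27.7 CPM per kilobase in both groups, with SDs of 0.553 to 3.33, and their order was not separated by that spread. At the lower end KDM4A and KDM4C, erasers of H3K9 and H3K36 methylation, averaged 7.06 and 6.83 CPM per kilobase in SCML4 cells and 7.25 and 7.03 in EV cells. KDM6A, KDM7A and SETDB2 were lowest, between 4.57 and 4.85 CPM per kilobase in SCML4 cells and between 4.85 and 5.52 in EV cells. SETDB2, a relative of SETDB1, had 26.9, 29.1 and 28.1 CPM in SCML4 libraries and 31.7, 28.5 and 30.7 in EV libraries. The ranges of SETDB2 overlapped, and its log2 difference was -0.11 with a 95% interval of -0.34 to 0.12. Many of the exonic bases of KDM4A (48.5%) are shared with other annotated genes, so reads there cannot be assigned to KDM4A alone. Most of these bases are shared with AL451062.3 on the same strand, and fewer with KDM4A-AS1 on the opposite strand.

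**Figure D3:**
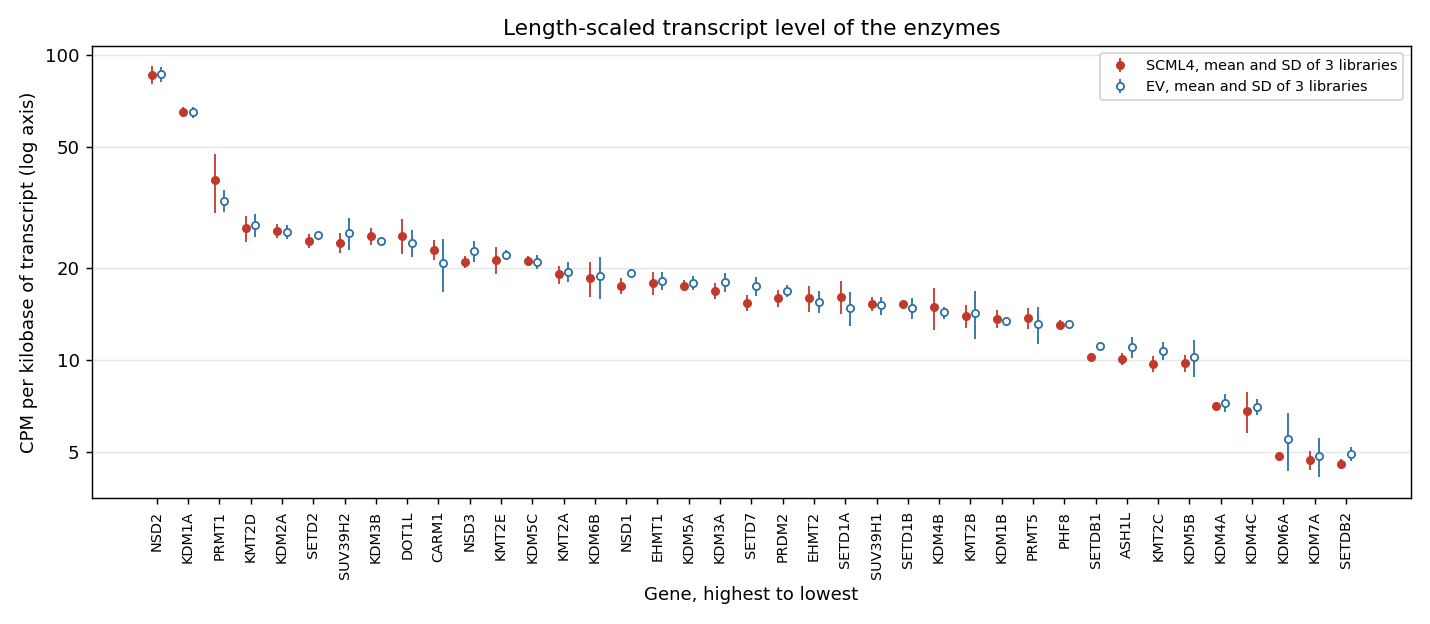
Level of each enzyme per kilobase of its longest coding transcript (CPM per kilobase, log axis), as the mean and SD of 3 SCML4 libraries (filled, left of each pair) and 3 EV libraries (open), ordered from highest to lowest. NSD2 and KDM1A stand above the rest, a broad middle group runs from about KMT2D to KDM5B, and KDM4A, KDM4C, KDM6A, KDM7A and SETDB2 lie lowest.

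Among the 7 writers of H3K4 methylation, 0 passed the test, with 2 positive and 5 negative differences and a median of -0.029 in log2. With each library left out in turn that median ran from -0.094 without EV replicate 1 to 0.016 without SCML4 replicate 2. SETD7, which adds a single methyl group to H3K4 and to several proteins other than histones, had 121, 110.0 and 109 CPM in SCML4 libraries and 139, 123 and 124 in EV libraries. Every SCML4 value lay below every EV value, SCML4 replicate 1 lying closest to the EV libraries. The log2 difference was -0.18 (SE 0.084), at a limma-trend adjusted p of 0.865. Without EV replicate 1, the highest of the 6 libraries for SETD7, it was -0.12. The catalytic subunits of the MLL and COMPASS complexes did not pass either. KMT2A (MLL), known for its rearrangements in acute leukaemia, averaged 317 ± 21.1 CPM in SCML4 cells and 324 ± 23.7 in EV cells (mean ± SD, n = 3 each, as for all such values). KMT2B, its closest relative, averaged 118 ± 10.3 and 121 ± 21.8 CPM in SCML4 and EV cells. Of the exonic bases of KMT2A, 18.9% are shared with other annotated genes.

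KMT2C and KMT2D, which place single methyl groups on H3K4 at enhancers, also gave no call. KMT2C averaged 164 ± 9.67 CPM in SCML4 cells and 181 ± 11.9 in EV cells, a log2 difference of -0.14 with a 95% interval of -0.31 to 0.034. For KMT2C several annotated pseudogenes resemble parts of the gene, and the counting could have divided reads between them. KMT2D averaged 525 ± 51.0 CPM in SCML4 cells and 538 ± 45.5 in EV cells. SETD1A and SETD1B, the catalytic subunits of the COMPASS complexes that place most trimethylated H3K4, had the 2 positive differences of the group. SETD1A averaged 104 ± 12.7 CPM in SCML4 cells and 95.8 ± 12.1 in EV cells, a difference of 0.12 that was 0.018 without EV replicate 1. SETD1B averaged 125 ± 3.60 and 121 ± 9.88 CPM in SCML4 and EV cells. KMT2E belongs to the same family but has no established enzyme activity. It had 132, 148 and 160.2 CPM in SCML4 libraries and 159, 147 and 150.3 in EV libraries, with overlapping groups and a difference of -0.058, which was 0.018 without SCML4 replicate 1.

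The 7 writers of H3K9 methylation also had 0 calls, with 2 positive and 5 negative differences and a median of -0.077 in log2. With each library left out in turn the median ran from -0.11 without EV replicate 2 to -0.025 without SCML4 replicate 1, and it was -0.033 without EV replicate 1. SETDB1 trimethylates H3K9 at retroelements together with TRIM28. It had 45.1, 44.4 and 46.4 CPM in SCML4 libraries and 48.2, 50.3 and 49.998 in EV libraries, so that all SCML4 values lay below all EV values. The means were 45.3 ± 0.983 and 49.5 ± 1.15 CPM in SCML4 and EV cells. In both groups counting alone would give a larger spread than these SDs, so they understate the uncertainty. The difference was -0.13 (SE 0.090), at a limma-trend adjusted p of 0.876. Without EV replicate 1 it was -0.14. Of the exonic bases of SETDB1, 13.4% are shared with CERS2, its neighbour on the opposite strand. SUV39H1 and SUV39H2, which trimethylate H3K9 in pericentric heterochromatin, averaged 45.6 ± 2.46 and 74.8 ± 5.54 CPM in SCML4 cells and 45.003 ± 3.06 and 80.7 ± 9.66 in EV cells. Of the exonic bases of SUV39H1, 20.3% are shared with a gene on the opposite strand. EHMT1 (GLP) and EHMT2 (G9a), which work as a heterodimer that dimethylates H3K9, averaged 92.0 ± 7.84 and 65.8 ± 6.54 CPM in SCML4 cells and 93.4 ± 6.47 and 64.2 ± 5.23 in EV cells. PRDM2 (RIZ), a PR domain enzyme, averaged 127 ± 8.28 and 134 ± 5.96 CPM in SCML4 and EV cells.

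All 5 writers of H3K36 methylation had negative differences, with 0 calls and a median of -0.12 in log2. Without EV replicate 1 the median was -0.053 and 4 of the 5 were negative, NSD2 being at 0.031. NSD1, which dimethylates H3K36, had 219, 218 and 241 CPM in SCML4 libraries and 242, 256 and 248 in EV libraries. The groups did not overlap, but SCML4 replicate 3 was nearly level with EV replicate 1. The difference was -0.14 (SE 0.074), with an unadjusted p of 0.0828 and a limma-trend adjusted p of 0.865. Over the alternatives the difference of NSD1 ran from -0.18 to -0.10 and its adjusted p in limma from 0.305 to 0.990. ASH1L, which also dimethylates H3K36, averaged 121 ± 5.54 CPM in SCML4 cells and 132 ± 10.3 in EV cells, a difference of -0.13. NSD3, a relative of NSD1, averaged 225 ± 10.1 and 245 ± 19.3 CPM in SCML4 and EV cells, a difference of -0.12. In both genes EV replicate 1 was the highest of the 6 libraries, at 144 CPM for ASH1L and 267 CPM for NSD3, and without it the differences were -0.064 and -0.053. SETD2, the enzyme that trimethylates H3K36 behind RNA polymerase II, averaged 200.5 ± 10.4 CPM in SCML4 cells and 209.7 ± 4.60 in EV cells. NSD2 had a difference of -0.0092 with a 95% interval of -0.18 to 0.16.

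DOT1L, the methyltransferase of H3K79 that acts with transcription elongation factors, had 179, 173 and 219 CPM in SCML4 libraries and 159, 189.8 and 191 in EV libraries. SCML4 replicate 3 was the highest library and EV replicate 1 the lowest, and the groups overlapped. Its difference was 0.078 (SE 0.10), and it was -0.0092 without EV replicate 1 and -0.025 without SCML4 replicate 3. Of its exonic bases 11.5% are shared with genes on the opposite strand. Over all 20 lysine writers, which leave out KMT2E, 5 differences were positive and 15 negative, with 0 calls and a median of -0.052 in log2, which ran from -0.097 without SCML4 replicate 3 to -0.029 without SCML4 replicate 1.

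Among the 5 erasers of H3K4 methylation, 0 passed, with 3 positive and 2 negative differences and a median of 0.0078 in log2, which took both signs, from -0.014 to 0.027, with each library left out in turn. KDM5B (JARID1B), a Jumonji eraser of H3K4 trimethylation, had the smallest p of the group. It had 95.8, 99.2 and 108 CPM in SCML4 libraries and 122, 96.1 and 98.8 in EV libraries, and only EV replicate 1 lay above the SCML4 range. KDM1A averaged 199 ± 7.39 CPM in SCML4 cells and 198 ± 7.92 in EV cells, a difference of 0.0078 with a 95% interval of -0.15 to 0.17. Its relative KDM1B (LSD2) averaged 52.0 ± 3.48 and 51.1 ± 1.29 CPM in SCML4 and EV cells. KDM5A averaged 189 ± 7.82 and 193 ± 10.0 CPM, and the X-linked KDM5C 129 ± 4.20 and 128 ± 7.05 CPM, in SCML4 and EV cells.

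The 7 erasers of H3K9 methylation had 0 calls, 2 positive and 5 negative differences and a median of -0.035 in log2. With each library left out in turn the median ran from -0.065 without SCML4 replicate 3 to 0.019 without SCML4 replicate 1, and it was 0.00079 without EV replicate 1. KDM3A, which removes the mono- and dimethyl mark, had 78.6, 82.6 and 88.3 CPM in SCML4 libraries and 96.0, 83.9 and 86.3 in EV libraries. The groups overlapped, with EV replicate 1 highest, and the difference was -0.091 (SE 0.088). KDM3B, its relative, averaged 173 ± 11.2 CPM in SCML4 cells and 167 ± 3.77 in EV cells. KDM4B, which like KDM4A and KDM4C also removes H3K36 trimethylation, ran from 72.5 to 99.2 CPM in SCML4 libraries and from 79.6 to 86.0 in EV libraries. KDM4A averaged 31.6 ± 1.18 and 32.4 ± 2.15 CPM, and KDM4C 31.8 ± 4.92 and 32.7 ± 2.03 CPM, in SCML4 and EV cells. PHF8, which reads H3K4 trimethylation and erases H3K9 dimethylation, averaged 79.2 ± 2.93 and 79.8 ± 1.99 CPM in SCML4 and EV cells. KDM7A, of the same subfamily, averaged 43.6 ± 3.04 and 44.9 ± 6.67 CPM. KDM2A, an eraser of H3K36 dimethylation that binds unmethylated CpG, had 191, 173 and 189.9 CPM in SCML4 libraries and 173, 187 and 190.1 in EV libraries. The groups of KDM2A overlapped and its difference was 0.0098.

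The enzymes grouped here as erasers of H3K27 methylation, KDM6A and KDM6B, act against PRC2. Both had negative differences and 0 calls. KDM6A (UTX) had 29.015, 27.8 and 29.4 CPM in SCML4 libraries and 40.3, 26.5 and 31.2 in EV libraries. EV replicate 1 was the highest of the 6 libraries and EV replicate 2 the lowest. The difference was -0.16 (SE 0.14) over all libraries and -0.0032 without EV replicate 1. KDM6B (JMJD3), which is known as inducible by inflammatory stimuli in macrophages, averaged 125 ± 16.7 CPM in SCML4 cells and 126 ± 19.8 in EV cells. Its difference was -0.016 with a 95% interval of -0.27 to 0.24, and with each library left out in turn it ran from -0.15 to 0.060. KDM6B exceeded KDM6A in every library, by a CPM ratio of 3.84, 4.29 and 4.88 in SCML4 libraries and 2.57, 5.19 and 4.42 in EV libraries. Over all 15 lysine erasers, 6 differences were positive and 9 negative, with 0 calls and a median of -0.016, which ran from -0.061 without SCML4 replicate 3 to 0.012 without SCML4 replicate 2.

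The 3 arginine methyltransferases all had positive differences, again with 0 calls, and a median of 0.16 in log2. Without EV replicate 1 the median was -0.0058 and PRMT1 alone was positive, at 0.16, PRMT5 being at -0.042. Without SCML4 replicate 1 all 3 were positive, with a median of 0.058. PRMT1, the main enzyme of asymmetric arginine dimethylation, had 78.4, 67.8 and 50.3 CPM in SCML4 libraries and 52.8, 54.4 and 61.3 in EV libraries. SCML4 replicates 1 and 2 lay above every EV library and SCML4 replicate 3 below them all. Its difference was 0.20 (SE 0.14), at a limma-trend adjusted p of 0.876. Without SCML4 replicate 3 it was 0.37, with an unadjusted p of 0.00621 and an adjusted p of 0.949, and over all alternatives it ran from 0.058 to 0.37 with adjusted p in limma of 0.502 to 0.990.

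CARM1 (PRMT4), a coactivator that methylates arginines of histone H3, is given by library because EV replicate 1 was seen to stand apart in it. It had 78.4, 70.3 and 81.1 CPM in SCML4 libraries and 53.7, 79.5 and 74.2 in EV libraries. Here EV replicate 1 alone lay below the other 5 libraries. The difference was 0.16 (SE 0.13), and it was -0.0058 without that library. Its exonic bases are shared with YIPF2 on the opposite strand for 19.9%. PRMT5, the main enzyme of symmetric arginine dimethylation, averaged 34.7 ± 2.73 CPM in SCML4 cells and 33.2 ± 4.60 in EV cells, a difference of 0.069, with 27.1% of its exonic bases shared with PRMT5-AS1. Annotated pseudogenes of PRMT1, PRMT5 and CARM1 exist, as for KDM3A. The counting could have divided reads between such copies and the parent genes, which was not examined.

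The ratio of lysine writers to lysine erasers was slightly lower in every SCML4 library than in any EV library. The closest values, 2.393 in SCML4 replicate 1 and 2.396 in EV replicate 2, were nearly level. Of single genes tested, 5.36% were apart in that direction, and no such share was computed for ratios. Summed CPM of the 20 lysine writers over that of the 15 lysine erasers came to 2.39, 2.34 and 2.39 in SCML4 libraries and 2.44, 2.40 and 2.46 in EV libraries. The means were 2.37 ± 0.031 in SCML4 cells and 2.43 ± 0.035 in EV cells. NSD2, KMT2D and KMT2A had the highest CPM of all the enzymes and so weigh most in the writer sum. For H3K4 the ratio of writers over erasers was 2.19 ± 0.090 in SCML4 cells and 2.24 ± 0.11 in EV cells, and for H3K9 it was 0.908 ± 0.023 and 0.943 ± 0.045. Within pairs of related enzymes the larger partner was the same in every library. EHMT1 over EHMT2 was 1.40 ± 0.023 in SCML4 cells and 1.46 ± 0.13 in EV cells, SUV39H2 over SUV39H1 was 1.64 ± 0.13 and 1.81 ± 0.35, and KDM5A over KDM5B was 1.87 ± 0.046 and 1.84 ± 0.15. In these pairs, and in the ratios for H3K4 and H3K9, the groups overlapped. All of these ratios compare CPM, not levels per length, and were not tested.

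The signs of the differences followed the base composition of the transcripts. For each gene the longest coding transcript was used, whose GC content ran from 38.6% in KDM7A to 63.5% in KMT2B. The next lines give a stretch of 90 coding bases of each of 4 enzymes, with G and C in capitals, to show what low and high GC content look like. Each stretch lies within a single exon, was picked for a GC content close to that of its whole transcript, and is given on the coding strand in GRCh38, from the transcripts of GENCODE 29. KDM7A is at chr7:140129561-140129650 (minus strand, exon 4) with 35 G or C, SETDB2 at chr13:49460107-49460196 (plus strand, exon 3) with 36, DOT1L at chr19:2191012-2191101 (plus strand, exon 5) with 56, and KMT2B at chr19:35719806-35719895 (plus strand, exon 3) with 57.
KDM7A: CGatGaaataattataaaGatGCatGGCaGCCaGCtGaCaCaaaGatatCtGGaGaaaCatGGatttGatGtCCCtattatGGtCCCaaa
SETDB2: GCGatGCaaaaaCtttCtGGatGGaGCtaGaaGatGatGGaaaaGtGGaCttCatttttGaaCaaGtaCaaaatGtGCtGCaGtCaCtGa
DOT1L: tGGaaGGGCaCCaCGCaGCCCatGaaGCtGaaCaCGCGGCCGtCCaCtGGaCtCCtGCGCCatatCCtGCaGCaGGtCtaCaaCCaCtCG
KMT2B: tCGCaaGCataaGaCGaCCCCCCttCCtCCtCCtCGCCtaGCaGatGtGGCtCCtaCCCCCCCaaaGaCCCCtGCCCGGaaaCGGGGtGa

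In EV replicate 1 the AT-rich enzymes stood high and the GC-rich enzymes low. Across the 39 enzymes, its departure from the 6-library mean had a Spearman correlation of -0.84 with GC content, while the other 5 libraries lay between -0.11 and 0.58. Over 14144 genes the coefficient for EV replicate 1 was -0.51, and all of these points share their libraries and depth. The value of 0.58 was that of SCML4 replicate 3, which had 0.29 over 14144 genes. Departures from a shared mean are tied, so the lean of EV replicate 1 moves the other libraries the opposite way. Of the 13 enzymes of lowest GC content (38.6% to 44.9%), 11 were highest in EV replicate 1, SETD7, KDM6A and ASH1L among them. Of the 13 of highest GC content (54.9% to 63.5%), 9 were lowest there, CARM1 and DOT1L among them. KMT2B, picked here for its composition, had 113, 113 and 130.3 CPM in SCML4 libraries and 99.0, 143 and 122 in EV libraries.

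The difference between the groups moved the same way. It was negative in 12 of the 13 enzymes of lowest GC content, with a median of -0.091 in log2, and positive in 9 of the 13 of highest GC content, with a median of 0.034. Without EV replicate 1 both medians came to nearly the same value, -0.027 and -0.026, with 9 and 10 negative differences, where 48.2% of all genes tested were negative. After each library was corrected for GC content and length they were -0.048 and -0.025. Across the 39 enzymes the Spearman correlation of the difference with GC content was 0.65 over all libraries and -0.052 without EV replicate 1. The same was seen over all genes tested and is not particular to the enzymes. In the 3828 genes within the lower range of GC content the median difference was -0.037, and in the 3325 within the higher range it was 0.075. Over 14144 genes the Spearman correlation of the difference with GC content was 0.34, and 0.027 without EV replicate 1. Of the 3 enzymes whose groups did not overlap, SETDB1 and NSD1 have GC contents in the middle range. Their differences without EV replicate 1 were -0.14 and -0.16.

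**Figure D4:**
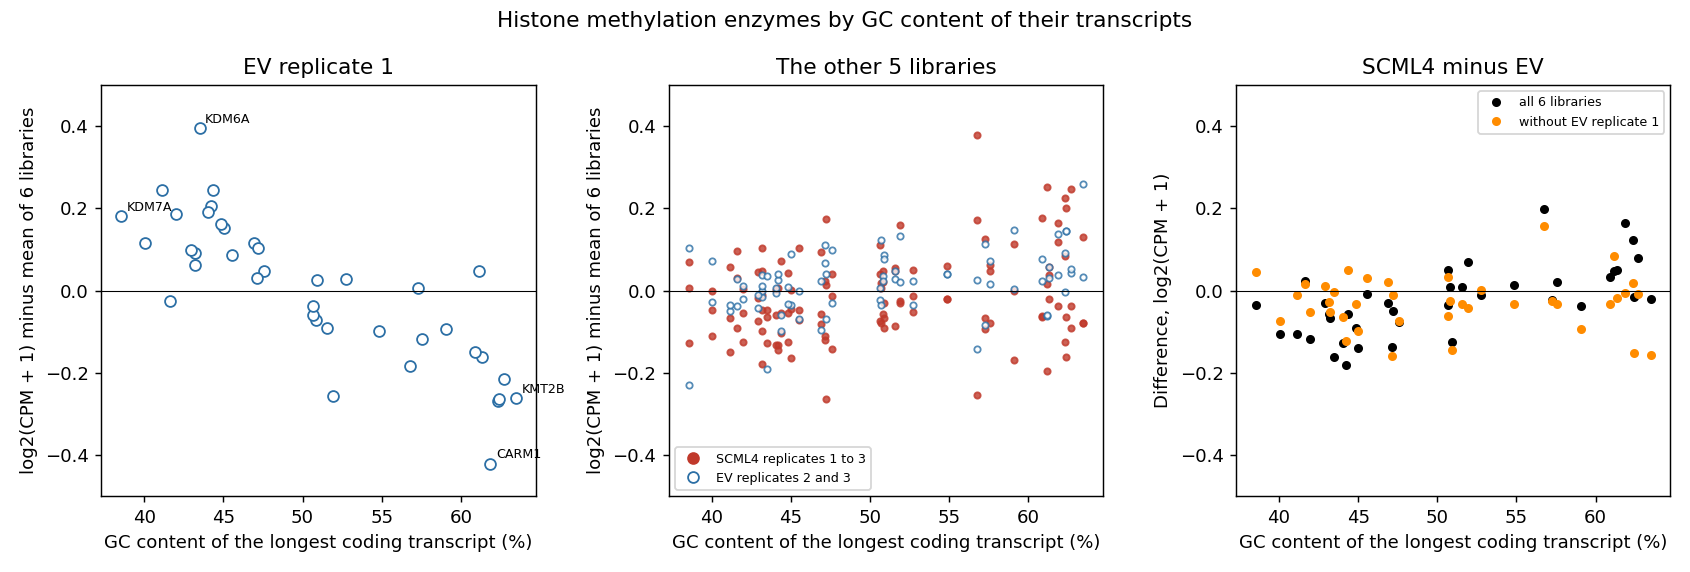
GC content of the longest coding transcript of the 39 enzymes (x axis, %) against, from left to right, the departure of EV replicate 1 from the 6-library mean, that of the other 5 (SCML4 filled, EV open), and the difference SCML4 minus EV with all libraries (black) and without EV replicate 1 (orange), all in log2(CPM + 1). EV replicate 1 falls steadily with GC content, from about KDM7A and KDM6A above 0 to CARM1 and KMT2B below 0, and the difference rises with GC content over all libraries (Spearman 0.65) but not without that library (-0.052).

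Most promoters of the enzymes were GC-rich, with a median close to that of the genes tested, and PHF8 was lowest at 44% with 1 CpG. In the RefSeq promoter sequences of GRCh38.p14, which span 250 bases before to 50 after the start, 36 of the 39 enzymes were matched. Their median GC content was 66.7% and their median number of CpG dinucleotides 29.5, against 65.3% and 26 for 10232 matched genes among those tested. Only the first listed start of each gene was used, so other starts are not covered. For PHF8 that start lies inside the gene as annotated in GENCODE 29. The letters TATAAA, searched on both strands, were in 0 of the 36, against 5.20% of the matched genes tested and 12.0% of all 27305 promoters. TGACTCA, the motif of AP-1, a factor that PMA activates, was in 2 (5.56%), KDM4C and KDM6A, against 2.82% of genes tested and 4.92% of all promoters. TGACGTCA, the motif of CREB and ATF factors, was in 1 (2.78%), SUV39H2, against 3.35% and 1.98%. CCGGAAGT, the motif of ETS factors, was in 1 (2.78%), KDM5A, against 9.14% and 4.44%. The 4 motifs do not contain one another, and their letters in a window do not show that a factor binds there.

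Other genes of histone methylation gave no calls either. Of 76 listed partners, cofactor genes and further enzymes, 69 were tested, 0 passed, 32 had positive and 37 negative differences, and the median was -0.013 in log2. In 3 of the 69 (4.35%) all SCML4 values lay above all EV values, against 6.29% of all genes tested, and in 9 (13.04%) all lay below, against 5.36%. Further lysine methyltransferases (9 tested) divided into 4 positive and 5 negative, with KMT5C, which methylates H4K20, at 0.20. Further Jumonji proteins (10 tested) divided into 5 and 5, with RIOX2 (MINA), a ribosomal oxygenase, at -0.25 and an unadjusted p of 0.0459. RIOX2 had 40.7, 34.2 and 30.6 CPM in SCML4 libraries and 41.1, 40.9 and 43.3 in EV libraries, and the groups did not overlap. Further arginine methyltransferases and their partners (7 tested) divided into 2 positive and 5 negative, with PRMT7, which adds single methyl groups to arginine, at -0.16. Subunits of COMPASS and MLL complexes (13 tested) divided into 8 positive and 5 negative, with PSIP1 (LEDGF), which tethers KMT2A, at -0.10.

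Readers of H3K9 methylation, the HUSH complex and partners of SETDB1 (11 tested) divided into 4 positive and 7 negative. PPHLN1 (periphilin), a HUSH subunit, had 104, 92.8 and 91.2 CPM in SCML4 libraries and 106, 108 and 109.5 in EV libraries, a difference of -0.17 with non-overlapping groups. Partners of DOT1L (7 tested) divided into 4 and 3, with MLLT1 (ENL), a YEATS domain protein of elongation complexes, at 0.16. Partners of LSD1 (6 tested) divided into 3 and 3. HMG20B (BRAF35), of the CoREST complex, had 94.5, 89.97 and 89.3 CPM in SCML4 libraries and 63.7, 81.8 and 85.4 in EV libraries, a difference of 0.25 with an unadjusted p of 0.0318 and EV replicate 1 lowest. Genes of methyl donor supply (6 tested) divided into 2 positive and 4 negative. For RIOX2, PPHLN1 and HMG20B the adjusted p in limma-trend was 0.865.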

How the data were processed

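RNA-seq was made from 6 Jurkat libraries, 3 per group. Groups and replicate numbers come from the sample titles. Per the labels' protocols, RNA came from a TRIzol extraction and the library kit was SMARTer mRNA-seq. FastQC, STAR, SAMtools and the build hg19 are named, without versions, per the submitters' processing notes. Not given in the sources used here are the counting tool, its strand setting, the gene annotation and where gene lengths came from. The deposited values are FPKM, which the authors scaled by gene length and library size, per the file headers, in a column for each library, and 0 columns were left unused. Of its 39012 genes 15115 are at 0 in every library.

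Since a gene's FPKM rise in equal steps of 1 read, whole reads were recovered for 99.996% of 23897 genes above 0, within 0.002 of a read. The lengths implied by the FPKM are not those of the named genes (Spearman correlation 0.0025 with GENCODE 29 transcript lengths over 14138 genes), so levels are CPM, the recovered reads per 1000000 of the library total. A count of 0 allows up to 3 reads, 0.290 to 0.335 CPM by library; such floors cover counting error only. Intervals of differences come from the spread between libraries.

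SCML4 minus EV was tested by limma-trend (limma 3.58.1 in R 4.3.3) on log2(CPM + 1), a scale that understates changes of low genes, for the 14156 genes averaging 10 or more reads, with Benjamini-Hochberg adjustment over all of them and a threshold of 0.05. The members and lists were chosen with earlier results of these data known. Lists were described by counts and medians, with no test of their own. Per-library values are given for the enzyme of smallest p in each residue group, for enzymes whose groups do not overlap and for the highest and lowest; of each other list the gene of smallest p is named. A gene that this rule would name is not reported here. Genes outside this rule are said to have been picked after their values were seen. Transcript length and GC content are those of the longest coding transcript in GENCODE 29 on GRCh38; coordinates refer to GRCh38, not to hg19. GC content was known for 99.92% of genes tested. The script was tested on simulated data. No libraries were duplicates, with a chi-square per gene of 2.60 to 11.1 within groups. Deviations of same-numbered libraries correlated at -0.057, -0.11 and -0.048, and those of differently numbered ones at -0.072 to 0.14. Deviations within so small a group are tied to each other, so these values cannot decide whether the numbers pair samples. Alternatives were other pseudocounts, filters and scalings, FPKM, limma-voom, library weights, a replicate block, GC and length correction (lowess, span 0.3) and leaving out each library.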

Additional observations from a re-analysis of the deposited data

How the results depend on the processing

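No enzyme was called under any of the 18 alternatives, and the smallest adjusted p of an enzyme in any of them was 0.305, for NSD1 in limma-trend with library weights. The median of the 39 differences stayed between -0.069 and 0.0036 when each library was left out in turn. The number of enzymes whose groups do not overlap, 3 over all libraries, ran from 3 to 9 in those fits, in which fewer libraries have to be apart (9 without EV replicate 2, 8 without SCML4 replicate 2, 7 without SCML4 replicate 3). The share over all genes tested was not computed for those fits, so these counts have no background to be read against. The number of all genes called, 1 over all libraries, was 0 on log2(FPKM + 1), 2 with median-of-ratios size factors, 3 with quantile normalization, 3 with GC and length correction, 14 in limma-voom with library weights and 18 in limma-trend with library weights, and ran from 1 to 14 when each library was left out, being 14 without EV replicate 1 and 2 without EV replicate 3 or SCML4 replicate 1. SCML4 had a difference of 1.88 and no call on log2(FPKM + 1) and was called in the other alternatives. With the replicate number as a block 2 genes were called in all, 0 of the enzymes passed, and 0 had an unadjusted p under 0.05; the block changed no call of an enzyme.

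With GC and length correction the sign changed in 11 enzymes, to log2 differences of 0.016 (KMT2A), -0.016 (SETD1B), -0.046 (SUV39H1), -0.044 (EHMT2), 0.022 (NSD2), -0.017 (KDM1A), 0.027 (KDM5A), -0.025 (KDM5C), -0.025 (KDM4B), 0.045 (KDM7A), -0.0045 (KDM2A). In limma-trend with library weights the sign changed in 16 enzymes, to log2 differences of -0.024 (SETD1A), -0.016 (SETD1B), -0.0038 (SUV39H1), 0.0081 (SUV39H2), -0.047 (EHMT2), -0.041 (DOT1L), -0.040 (KDM1A), -0.017 (KDM1B), 0.0090 (KDM5B), -0.032 (KDM5C), -0.0023 (KDM3B), 0.052 (KDM4C), 0.015 (KDM7A), -0.055 (KDM2A), -0.035 (PRMT5), -0.0094 (CARM1). In limma-voom with library weights the sign changed in 13 enzymes, to log2 differences of -0.00072 (SETD1A), -0.0086 (SETD1B), -0.0092 (SUV39H1), -0.040 (EHMT2), -0.025 (DOT1L), -0.033 (KDM1A), -0.0060 (KDM1B), 0.0087 (KDM5B), -0.029 (KDM5C), 0.029 (KDM4C), 0.0099 (KDM7A), -0.043 (KDM2A), -0.025 (PRMT5). When each library was left out in turn, the differences of these enzymes took both signs, running from -0.084 to 0.021 (KMT2A), -0.16 to 0.11 (KMT2B), -0.10 to 0.037 (KMT2D), -0.018 to 0.091 (SETD1B), -0.12 to 0.018 (KMT2E), -0.033 to 0.065 (SUV39H1), -0.091 to 0.028 (EHMT1), -0.045 to 0.080 (EHMT2), -0.064 to 0.031 (NSD2), -0.025 to 0.14 (DOT1L), -0.026 to 0.038 (KDM1A), -0.020 to 0.075 (KDM1B). The same held for the ranges of -0.061 to 0.011 (KDM5A), -0.12 to 0.051 (KDM5B), -0.033 to 0.037 (KDM5C), -0.062 to 0.018 (KDM4A), -0.065 to 0.16 (KDM4B), -0.15 to 0.069 (KDM4C), -0.16 to 0.046 (KDM7A), -0.039 to 0.013 (PHF8), -0.033 to 0.056 (KDM2A), -0.15 to 0.060 (KDM6B), -0.042 to 0.15 (PRMT5), -0.0058 to 0.27 (CARM1). None of these fits called any of the enzymes, and the cause of the sign changes was not tested. In 12 of the 39 enzymes the sign was the same throughout, negative in 11 (KMT2C, SETD7, SETDB1, SETDB2, PRDM2, SETD2, NSD1, NSD3, ASH1L, KDM3A and KDM6A) and positive in 1 (PRMT1). With 238 to 7536 reads per enzyme and library, counting alone gives a coefficient of variation with a median of 3.06% in SCML4 cells and 2.97% in EV cells, and it exceeded the measured one in 5 enzymes in SCML4 cells and in 6 in EV cells, SETDB1 and SETDB2 in both.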
